A study of Mus musculus with 19 samples.

Results

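A set of 10 genes that encode acute phase plasma proteins was followed through the liver transcriptomes of mice given polyethylene (PE) particles, a MASH diet, or both. They were the serum amyloid A genes Saa1, Saa2, Saa3 and Saa4, the orosomucoid genes Orm1 and Orm2, haptoglobin (Hp), hemopexin (Hpx), lipocalin 2 (Lcn2) and serum amyloid P component (Apcs). The members were chosen by gene symbol, and they are 10 of the 55836 genes counted. All 10 were among the 13597 genes that passed the filter on low counts. The members did not move as a block with diet. Apcs was lower in all 3 comparisons of a MASH diet group with a control diet group. Among the 3, MD + PE against CD + Veh changes PE along with diet. Orm1 was lower in both comparisons with CD + Veh but was not called in MD + PE against CD + PE. Saa3, Orm2, Lcn2 and Saa4 were higher in at least 1 comparison of the diets at the same gavage. Hp was called higher only in MD + PE against CD + Veh. Hpx, Saa1 and Saa2 did not pass the test in any comparison. No member passed the test for PE against vehicle on either diet.

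The libraries came from livers of wild-type (WT) male C57BL/6 mice, 8 weeks old at the start, with 1 library per mouse. CD + Veh (n = 4) received the control diet (Chow Diet in the labels) and a daily oral gavage of vehicle, and CD + PE (n = 5) received the same diet and 2 mg PE per mouse and day. MD + Veh (n = 5) and MD + PE (n = 5) received the MASH diet (for metabolic dysfunction-associated steatohepatitis), rich in fat, fructose and cholesterol, with vehicle or with the same PE dose. Diet and gavage lasted 8 weeks, and the mice of a group were housed together, so a cage and a group cannot be told apart. All libraries carry the same batch label, but each group holds a run of consecutive library numbers. The runs are 39 to 42 for CD + Veh, 43 to 47 for MD + Veh, 48 to 52 for CD + PE and 53 to 57 for MD + PE. An effect of library order therefore cannot be told apart from that of PE. Among the vehicle mice or the PE mice, it cannot be told apart from that of diet either.

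The acute phase response is the change in liver secretion that follows infection, injury or inflammation elsewhere in the body. Cytokines of the interleukin-6 family, acting through STAT3, and interleukin-1, acting through NF-kB and C/EBP factors, raise the transcription of positive acute phase genes in hepatocytes, while albumin and other carrier proteins are made less. SAA proteins circulate on high-density lipoprotein, orosomucoids bind lipophilic compounds, haptoglobin and hemopexin capture free hemoglobin and heme, lipocalin 2 binds bacterial iron carriers, and the pentraxin Apcs is a major acute phase protein of the mouse.

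The genes lie in 6 places of the mouse genome (GRCm39, GENCODE vM39). The 4 Saa genes form a cluster on chromosome 7, with Saa3 at chr7:46361422-46365576, Saa4 at chr7:46377406-46382035 and Saa1 at chr7:46389916-46392547 on the minus strand, and Saa2 at chr7:46401214-46403737 on the plus strand. Orm1 (chr4:63261052-63272189), Orm3 (chr4:63274208-63277748) and Orm2 (chr4:63280686-63284115) follow each other on the plus strand of chromosome 4. Hpx lies at chr7:105240817-105249344, Hp at chr8:110301759-110305804, Lcn2 at chr2:32274645-32278264 and Apcs at chr1:172721528-172722611, each on the minus strand.

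Stretches just upstream of the annotated first exon are printed for 4 members that behaved differently, namely Saa1 and its near copy Saa2, the rising Orm2 and the falling Apcs. They were taken from the RefSeq promoter table and each matched a single place in GRCm39, at chr7:46392548-46392654 on the minus strand for Saa1, chr7:46401007-46401213 on the plus strand for Saa2, chr4:63280436-63280685 on the plus strand for Orm2 and chr1:172722622-172722871 on the minus strand for Apcs. Capitals mark matches on either strand to TTNNGCAA, a C/EBP motif, in Saa1, Saa2 and Orm2, and to TTCNNNGAA, a STAT motif, and CTGGGAA, the core of an interleukin-6 response element, in Apcs.
Saa1: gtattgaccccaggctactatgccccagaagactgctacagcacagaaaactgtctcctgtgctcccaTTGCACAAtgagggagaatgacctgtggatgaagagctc
Saa2: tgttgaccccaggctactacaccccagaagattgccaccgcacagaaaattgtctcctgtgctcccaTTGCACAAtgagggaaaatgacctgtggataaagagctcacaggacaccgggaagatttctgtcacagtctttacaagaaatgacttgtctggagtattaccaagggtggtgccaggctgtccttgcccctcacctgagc
Orm2: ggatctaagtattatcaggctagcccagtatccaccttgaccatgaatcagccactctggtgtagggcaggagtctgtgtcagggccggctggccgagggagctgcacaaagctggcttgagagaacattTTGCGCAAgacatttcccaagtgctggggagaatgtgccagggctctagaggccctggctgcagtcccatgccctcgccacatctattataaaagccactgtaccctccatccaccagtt
Apcs: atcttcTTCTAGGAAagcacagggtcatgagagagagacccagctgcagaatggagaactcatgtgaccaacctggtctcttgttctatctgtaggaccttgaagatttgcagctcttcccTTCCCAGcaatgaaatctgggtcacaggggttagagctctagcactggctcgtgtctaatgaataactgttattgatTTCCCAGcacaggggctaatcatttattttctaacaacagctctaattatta

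The motifs were picked with these sequences in view, so the matches are a description. In the 250 bases before the RefSeq start, TTNNGCAA was found for 7 of the 8 members that have an entry (Saa1, Saa2, Saa3, Saa4, Orm2, Hpx and Lcn2), and for 9.56% of all 32851 promoters in the table. TTCNNNGAA was found in Apcs alone among the 8, against 7.02% of all promoters, and CTGGGAA also in Apcs alone, against 9.1%. A match to an NF-kB motif was found in Saa1 alone, against 4.63% of all promoters. It lies in the 143 bases of the Saa1 window that annotated exons cover and that are not printed. Annotated exons also cover all 250 bases of the Saa3 window and 197 of the Lcn2 window. The windows of Saa1 and Saa2 were identical at 94.8% of aligned positions, whereas Saa1 matched Saa3 at 52.5% and Saa4 at 47.1%. Orm1 and Hp have no entry in the table.

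The near copies matter for the counts as well, because reads from shared stretches have to be divided between genes by estimation. Of all 31-base words of the canonical Saa1 transcript, 23.8% also occur in Saa2, and 28.3% of those of Saa2 occur in Saa1. For Orm1 and Orm2 these shares were 25.8% and 28.5%, and 9.40% of the words of Orm2 occur in Orm3. Saa4 shared no such word with the other Saa genes. The split between Saa1 and Saa2, and between the Orm genes, is therefore uncertain, and results with the near copies summed are given beside them.

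Levels are given as CPM, counts scaled to a common library total, after TMM scaling, which corrects for differences in library composition. Depth ranged from 10398820 to 15456729 counts per library, and the PE libraries were the shallower ones. Fold changes are log2 values with standard errors (SE), and a gene was called when its adjusted p was below 0.05 and its log2 fold change at least 0.38 in either direction. In bulk tissue, fewer cells of a type and less RNA per cell cannot be told apart. Hepatocyte markers summed to 55759 to 104888 CPM per library, and the summed markers of neutrophils, another source of Lcn2, reached at most 4.88 CPM in any library.

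Per kilobase of the canonical transcript, Hpx stood highest with a mean of 2501 CPM per kb over the 19 libraries, followed by Hp with 1839 and Orm1 with 613. Saa1 (219 CPM per kb), Saa4 (127) and Saa2 (108) formed a middle tier. Apcs (36.8), Orm2 (25.9), Lcn2 (11.5) and Saa3 (9.56) were low. Spread also differed between members. Hpx and Hp differed by 1.97-fold and 1.92-fold between the highest and the lowest library, whereas Lcn2 differed by 83.9-fold, Saa2 by 18.9-fold, Saa3 by 15.8-fold, Saa1 by 15.6-fold and Orm2 by 9.87-fold. Saa4 (4.27-fold), Apcs (3.39-fold) and Orm1 (2.73-fold) lay between.

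**Figure D1:**
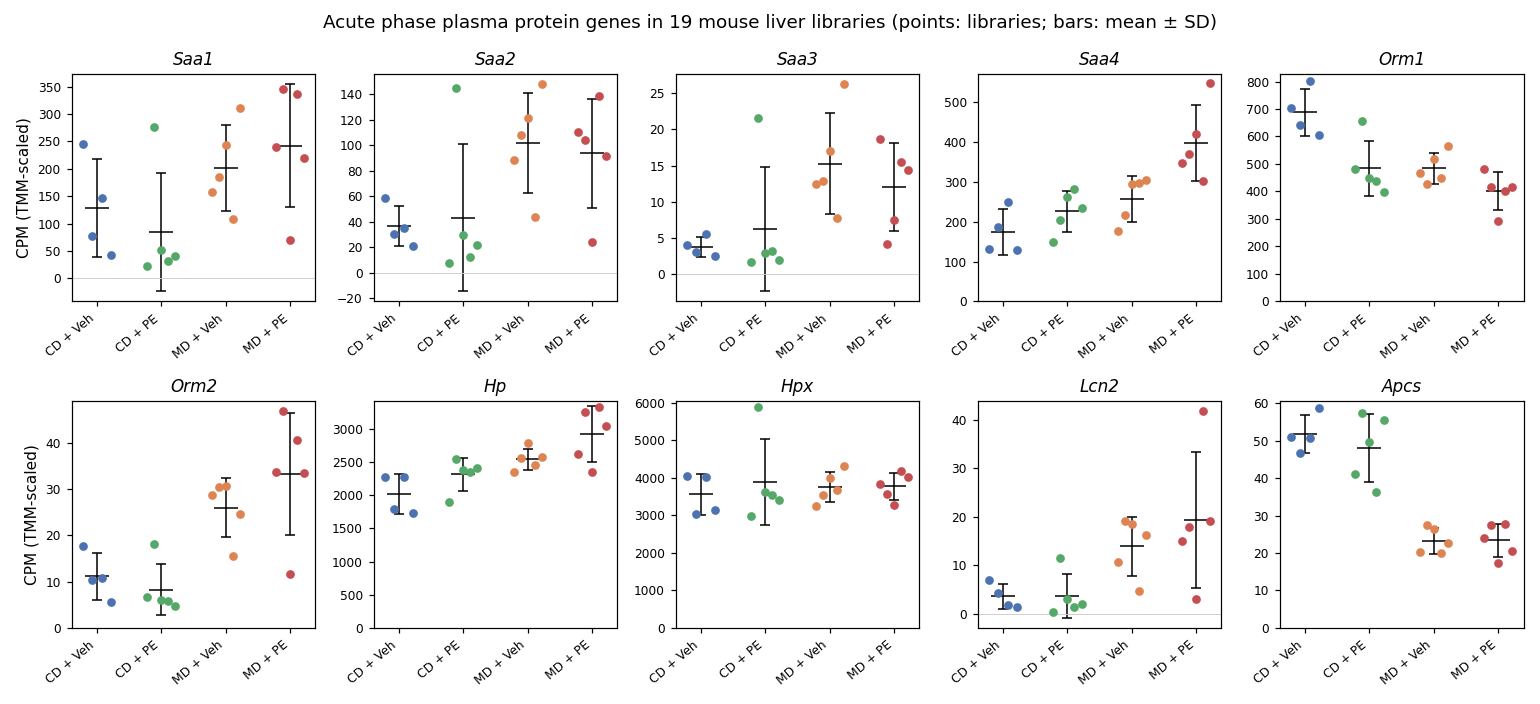
Level of each acute phase gene in each of the 19 liver libraries, in TMM-scaled CPM (y axis, linear), by group (x axis). Points are libraries, and the bars show the mean and SD of each group. Apcs separates the diets completely, with 36.5 CPM or more on the control diet and 27.7 CPM or less on the MASH diet, while 1 CD + PE library stands far above its group for Saa1, Saa2, Saa3, Orm2, Hpx and Lcn2.

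The CD + PE library of replicate 2 has to be described before the comparisons, since it touches most of them. It was the highest of its group for 9 of the 10 members, all but Saa4. Relative to the mean of the other 4 CD + PE libraries it held 8.84 times as much Saa3, 8.11 times as much Saa2, 7.55 times as much Saa1, 6.51 times as much Lcn2 and 3.13 times as much Orm2. The difference was smaller for the other 4 of these 9 members, by a factor of 1.74 for Hpx, 1.49 for Orm1, 1.26 for Apcs and 1.13 for Hp. The same library had the highest sum of the 9 Kupffer cell markers, 845 CPM, against 119 to 438 CPM in the other 18 libraries, with the scavenger receptor Marco at 256 CPM, and none of those markers was at 0. Its neutrophil markers summed to 4.21 CPM and its red blood cell markers to 443 CPM. The part of these cells in the high acute phase values was not tested. Because the members' own values set this library apart, their results without it are given only as a description. Low libraries existed too: MD + PE replicate 3 and CD + Veh replicate 4 were each the lowest of their group for 8 members, and CD + PE replicate 1 for 7.

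**Figure D2:**
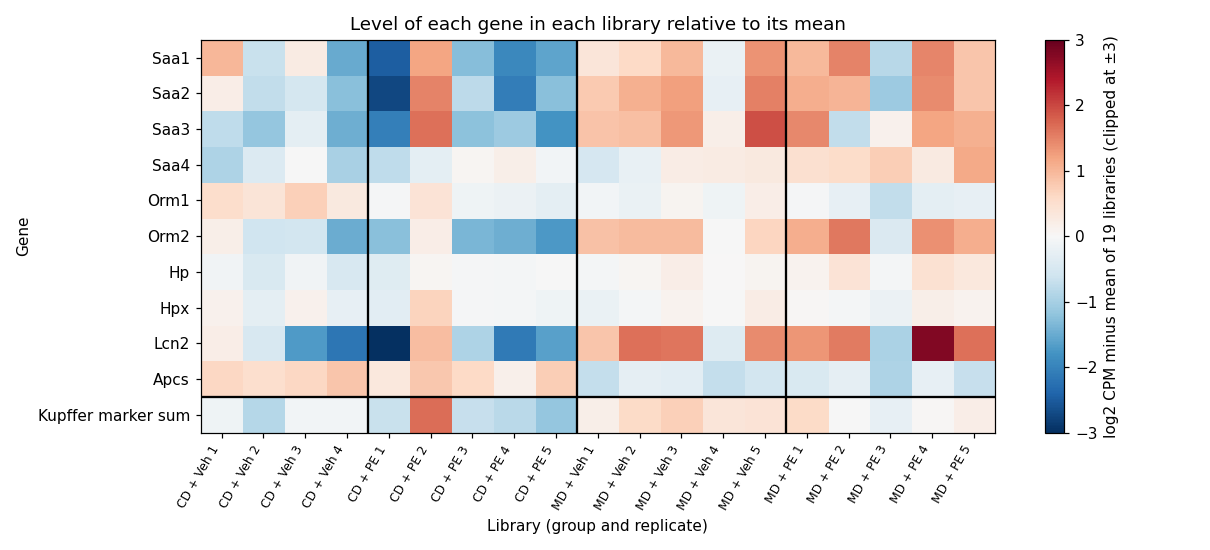
Heat map of the 10 genes and, in the lowest row, the summed Kupffer cell markers in the 19 libraries (columns, by group), with the colour giving log2 CPM minus its mean over all libraries, clipped at 3 on either side. The column of CD + PE replicate 2 differs from the other 4 columns of its group for Saa1, Saa2, Saa3, Orm2, Lcn2 and the Kupffer cell markers.

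The effect of the MASH diet alone was read from MD + Veh against CD + Veh. In this comparison 4 of 10 members were called, 2 higher (Saa3, Orm2) and 2 lower (Apcs, Orm1), against 10.4% of all genes called (4.74% higher and 5.63% lower). The median log2 fold change of the 10 members was 0.61, against -0.00 for all genes tested. For 4 members the 2 groups did not overlap (Saa3 and Hp higher, Apcs and Orm1 lower), and 16.2% of all genes had groups without overlap. Leaving out CD + PE replicate 2, which is in neither group but enters the shared estimate of spread, also brought calls for Saa2 (adjusted p = 0.0304) and Lcn2 (adjusted p = 0.0349), and leaving out CD + Veh replicate 3 brought a call for Saa4 (adjusted p = 0.0355).

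Apcs, the pentraxin, showed the most stable diet difference. Apcs was 51.1, 46.6, 50.7 and 58.7 CPM in CD + Veh, and 20.2, 27.5, 26.3, 20.05 and 22.6 CPM in MD + Veh. Every MD + Veh mouse lay below every CD + Veh mouse, and the log2 fold change was -1.15 (SE 0.15, edgeR quasi-likelihood test with Benjamini-Hochberg adjustment, adjusted p = 4.2e-05). In the PE groups Apcs was 41.3, 57.5, 49.8, 36.5 and 55.5 CPM with the control diet and 24.1, 27.5, 17.3, 27.7 and 20.6 CPM with the MASH diet. The decrease in MD + PE against CD + PE was again without overlap (log2 fold change -1.04, SE 0.14, adjusted p = 0.000123). Apcs was called in all 3 comparisons of MASH diet against control diet in every fit with 1 of the 19 libraries left out.

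Orm1, the main orosomucoid of the liver, was 703, 641, 801 and 605 CPM in CD + Veh, the highest group. It was 481, 657, 448, 436 and 399 CPM in CD + PE, 467, 426, 518, 448 and 564 CPM in MD + Veh, and 481, 415, 293, 403 and 415 CPM in MD + PE. The MD + Veh libraries all lay below the CD + Veh libraries (log2 fold change -0.51, SE 0.14, adjusted p = 0.0236). That call was lost, at an adjusted p of up to 0.0833, when CD + Veh replicate 1 or 3 or MD + Veh replicate 1, 2 or 4 was left out. CD + PE differed from CD + Veh by nearly the same amount, -0.51 on the log2 scale (SE 0.14), but its adjusted p was 0.0543, and CD + PE replicate 2 overlapped the controls. Without that library Orm1 was called, at -0.64 (SE 0.13, adjusted p = 0.00919), and leaving out MD + PE replicate 3 also brought the call. MD + PE against CD + Veh gave the lowest value, -0.78 (SE 0.14, adjusted p = 0.000694), with no overlap. In MD + PE against CD + PE the groups overlapped and Orm1 was not called (-0.27, SE 0.14, adjusted p = 0.257), nor was it in any fit with a library left out (adjusted p 0.16 or more). With the 3 Orm genes summed that comparison gave -0.16 (SE 0.14, adjusted p = 0.55).

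Orm2 moved the other way from a much lower level. It was 17.7, 10.3, 10.8 and 5.59 CPM in CD + Veh and 28.8, 30.5, 30.5, 15.5 and 24.6 CPM in MD + Veh, with 1 MD + Veh mouse inside the range of the controls. The log2 fold change was 1.23 (SE 0.40, adjusted p = 0.045). This call was narrow: it held in 9 of the 19 fits that leave out 1 library and was lost in the other 10, with adjusted p between 0.0152 and 0.138 and a log2 fold change between 1.02 and 1.56. The libraries whose omission ended the call were CD + Veh replicates 2, 3 and 4, MD + Veh replicates 1, 2, 3 and 5, CD + PE replicate 3, and MD + PE replicates 1 and 5. Orm2 was 6.56, 18.1, 6.09, 5.72 and 4.74 CPM in CD + PE and 33.6, 46.8, 11.6, 40.4 and 33.5 CPM in MD + PE. Here the log2 fold change was 2.00 (SE 0.39, adjusted p = 0.00308), and the call held in all 19 such fits. The overlap came from CD + PE replicate 2, since the other 4 CD + PE libraries did not exceed 6.56 CPM.

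Because Orm1 fell and Orm2 rose, the composition of the orosomucoid counts shifted with diet. Orm2 made up a median of 1.45% of the summed CPM of Orm1, Orm2 and Orm3 in CD + Veh (range 0.914% to 2.45%) and 1.34% in CD + PE (1.17% to 2.67%). Its share was 5.47% in MD + Veh (3.30% to 6.60%) and 7.31% in MD + PE (3.79% to 10.02%). The ranges of the 2 diets did not overlap. The paralog Orm3, a rare transcript, was at most 1.00 CPM in every library of the control diet and at least 2.61 CPM in every library of the MASH diet (log2 fold change 3.08, SE 0.41, adjusted p = 5.82e-05) in MD + Veh against CD + Veh. With the 3 Orm genes summed, the total fell by 0.44 in MD + Veh against CD + Veh (SE 0.15, adjusted p = 0.0553, not called) and by 0.67 in MD + PE against CD + Veh (SE 0.15, adjusted p = 0.00335), as Orm1 carried nearly all of the counts.

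Saa3, which macrophages and fat cells also make, was 4.04, 3.08, 5.57 and 2.49 CPM in CD + Veh and 12.4, 12.9, 17.0, 7.74 and 26.2 CPM in MD + Veh. All MD + Veh libraries exceeded all CD + Veh libraries (log2 fold change 2.00, SE 0.64, adjusted p = 0.0422). The call was lost, at an adjusted p of up to 0.118, when any CD + Veh library, MD + Veh replicate 1, 2, 3 or 5, or MD + PE replicate 5 was left out, and without CD + PE replicate 2 the adjusted p was 0.00212. It was also lost with the library order covariate for numbers above 45 (1.89, adjusted p = 0.0782). The summed Kupffer cell markers were also higher in MD + Veh (301 to 438 CPM) than in CD + Veh (146 to 250 CPM), although none of the 9 genes was called, and the part of these cells in the Saa3 result was not tested. Saa3 was 1.66, 21.6, 2.91, 3.21 and 1.98 CPM in CD + PE and 18.6, 4.13, 7.48, 15.5 and 14.5 CPM in MD + PE. The log2 fold change between these 2 groups was 0.94 (SE 0.58, adjusted p = 0.368), and it was 2.31 (SE 0.43, adjusted p = 0.00249) without CD + PE replicate 2.

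Saa1 and Saa2, the acute phase SAA genes of hepatocytes, varied so much inside the groups that the diet difference was not resolved. Saa1 was 245, 77.4, 146 and 42.8 CPM in CD + Veh, 22.2, 277, 50.8, 32.3 and 41.3 CPM in CD + PE, 157, 185, 243, 108 and 311 CPM in MD + Veh, and 239.9, 345, 69.4, 336 and 219 CPM in MD + PE. The 2 vehicle groups overlapped widely (log2 fold change 0.65, SE 0.64, adjusted p = 0.543). In the PE groups the log2 fold change of MD + PE against CD + PE was 1.51 (SE 0.61, adjusted p = 0.15). Without CD + PE replicate 2 it was 2.72 (SE 0.50, adjusted p = 0.00204), with 22.2 to 50.8 CPM in the remaining CD + PE libraries and 69.4 CPM in the lowest MD + PE library.

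Saa2 had a spread like that of Saa1. It was 58.8, 30.9, 35.6 and 21.4 CPM in CD + Veh, 7.80, 145, 30.0, 12.3 and 21.5 CPM in CD + PE, 88.8, 109, 122, 43.7 and 148 CPM in MD + Veh, and 110.3, 104, 24.3, 139 and 91.9 CPM in MD + PE. Of the 5 MD + Veh libraries only replicate 4 lay within the range of CD + Veh, and the log2 fold change was 1.48 (SE 0.66, adjusted p = 0.143). For MD + PE against CD + PE it was 1.11 (SE 0.61, adjusted p = 0.3), and 2.39 (SE 0.48, adjusted p = 0.00359) without CD + PE replicate 2. With Saa1 and Saa2 summed, no comparison was called, and the log2 fold change of MD + PE against CD + PE was 1.39 (SE 0.61, adjusted p = 0.189). The median share of Saa2 in the sum of both genes lay between 24.1% in CD + Veh and 34.3% in CD + PE.

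Saa4, the constitutive member of the family, had the narrowest spread of the Saa genes. It was 132, 188, 249 and 129 CPM in CD + Veh, 149, 204, 262, 281 and 235 CPM in CD + PE, 176, 216, 294, 298 and 306 CPM in MD + Veh, and 349, 369, 420.5, 302 and 549 CPM in MD + PE. CD + Veh, CD + PE and MD + Veh overlapped one another, and neither diet alone (log2 fold change 0.57, SE 0.23, adjusted p = 0.104) nor PE on the MASH diet (0.63, SE 0.21, adjusted p = 0.146) was called. MD + PE exceeded CD + PE in every library (log2 fold change 0.81, SE 0.21, adjusted p = 0.025), a call lost without CD + PE replicate 1 or MD + PE replicate 5 (adjusted p up to 0.0763). MD + PE also exceeded every library of CD + Veh, by 1.19 (SE 0.23, adjusted p = 0.00105). Saa4 was the exception among the members in CD + PE replicate 2, where it lay at 0.879 times the mean of the other 4 libraries.

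Lcn2 was 6.97, 4.37, 1.88 and 1.35 CPM in CD + Veh and 10.8, 19.2, 18.6, 4.64 and 16.3 CPM in MD + Veh. The log2 fold change was 1.93 (SE 0.71, adjusted p = 0.077). It was 0.498, 11.5, 3.18, 1.41 and 1.98 CPM in CD + PE and 15.1, 17.9, 3.13, 41.8 and 19.1 CPM in MD + PE. MD + PE was higher than CD + PE by 2.38 (SE 0.67, adjusted p = 0.0376) although the groups overlapped. The call was lost when CD + PE replicate 1, 3, 4 or 5 or MD + PE replicate 2, 4 or 5 was left out (adjusted p up to 0.118) and in a fit of these 2 groups alone (2.39, adjusted p = 0.0809), and leaving out CD + PE replicate 2 raised the log2 fold change to 3.47 (SE 0.68, adjusted p = 0.00344). The highest Lcn2 library, MD + PE replicate 4, also had the highest sum of markers of lipid-associated and recruited macrophages, 268 CPM, and of neutrophils, 4.88 CPM. The part of these cells in the Lcn2 value was not tested.

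The abundant heme and hemoglobin binders changed little. Hp was 2270.5, 1789, 2282 and 1735 CPM in CD + Veh, 1898, 2552, 2384, 2359.9 and 2406 CPM in CD + PE, 2359, 2558, 2784, 2456 and 2577 CPM in MD + Veh, and 2621, 3259, 2355, 3337 and 3054 CPM in MD + PE. All MD + Veh and all MD + PE libraries lay above all CD + Veh libraries. The log2 fold change was 0.33 (SE 0.12, adjusted p = 0.0661, not called) for MD + Veh and 0.53 (SE 0.12, adjusted p = 0.0034) for MD + PE, the latter called in each of the 19 fits that leave out a library. Hpx was 4035, 3039, 4032 and 3137 CPM in CD + Veh, 2992, 5895, 3629, 3547 and 3416 CPM in CD + PE, 3240.4, 3553, 3984, 3669 and 4311 CPM in MD + Veh, and 3833, 3578, 3274, 4192 and 4009 CPM in MD + PE. Its 4 groups overlapped, and its log2 fold changes lay between -0.04 and 0.13 over the 5 comparisons of 2 groups, with SE of 0.15 to 0.16. The ratio of Hp to Hpx CPM had a median of 0.564 in CD + Veh (range 0.553 to 0.589), 0.657 in CD + PE (0.433 to 0.704), 0.699 in MD + Veh (0.598 to 0.728) and 0.762 in MD + PE (0.684 to 0.911). CD + Veh thus lay below every library of both MASH diet groups in this ratio. It also lay below every CD + PE library (0.634 to 0.704) except replicate 2 (0.433).

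**Figure D3:**
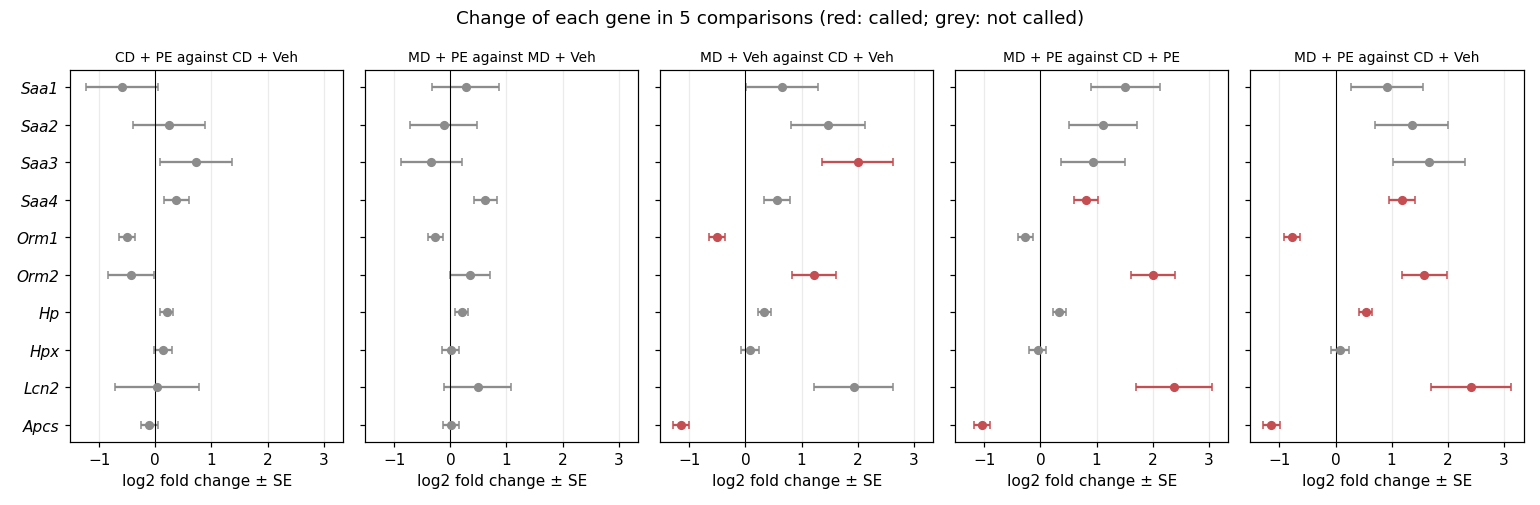
Log2 fold change of each acute phase gene (y axis) with its standard error (horizontal bar) in the comparisons of groups (panels), from the edgeR fit over all 19 libraries, with called genes marked. The 3 comparisons of MASH diet against control diet hold called genes on both sides of 0, and the 2 comparisons of PE against vehicle hold none. Among the 3, MD + PE against CD + Veh also differs in PE.

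The effect of PE was read on each diet. In CD + PE against CD + Veh 0 of 10 members were called, against 2.92% of all genes (1.22% higher and 1.7% lower). DESeq2 called 1 member, Orm1. In edgeR only Orm1 had an unadjusted p below 0.05, beside 17.5% of all genes. The log2 fold changes were -0.59 (SE 0.64) for Saa1, 0.24 (SE 0.64) for Saa2, 0.73 (SE 0.64) for Saa3 and 0.03 (SE 0.75) for Lcn2, and none of the 4 was called. CD + PE replicate 2 set several of these values: without it Saa1 was -1.80 (SE 0.50, adjusted p = 0.0518) and Orm2 moved from -0.43 (SE 0.41) to -0.94 (SE 0.37, adjusted p = 0.179), still not called. In MD + PE against MD + Veh edgeR and DESeq2 called 0 of 10 members, against 1.08% of all genes (0.147% higher and 0.934% lower). In edgeR 1 member (Saa4) had an unadjusted p below 0.05, beside 15.7% of all genes, and in DESeq2 2 members did. Apcs (0.01, SE 0.14) and Hpx (0.01, SE 0.15) had the smallest differences. No member had groups without overlap in either PE comparison, where 7.83% of all genes on the control diet and 3.57% on the MASH diet did. The interaction of PE and diet, the difference between the PE effects on the 2 diets, was called for 0 of 10 members by edgeR and by DESeq2, against 0.00735% of all genes. In this test 0 members had an unadjusted p below 0.05, beside 8.77% of all genes in edgeR. Without CD + PE replicate 2 the interaction was 2.07 (SE 0.65, adjusted p = 0.3) for Saa1 and 1.29 (SE 0.47, adjusted p = 0.387) for Orm2, not called.

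The MASH diet in mice given PE, MD + PE against CD + PE, gave 4 called members of 10, 3 higher (Orm2, Lcn2, Saa4) and 1 lower (Apcs), against 4.61% of all genes (1.69% higher and 2.92% lower). The median log2 fold change of the members was 0.88, against -0.02 for all genes. Without CD + PE replicate 2, 7 members were called, with Saa1, Saa2 and Saa3 added, and without MD + PE replicate 3 Hp was called (adjusted p = 0.0347). The former fit leaves out the library that Saa1, Saa2 and Saa3 themselves set apart. Groups did not overlap for Saa4 and Apcs, and this was so for 6.18% of all genes. MD + PE against CD + Veh, where diet and PE change together, gave 6 called members, 4 higher (Hp, Saa4, Orm2, Lcn2) and 2 lower (Apcs, Orm1), against 14.6% of all genes (6.02% higher and 8.55% lower). Groups did not overlap for Hp, Saa4, Apcs and Orm1, against 18.8% of all genes. Orm2 was higher by 1.58 (SE 0.40, adjusted p = 0.00825), Lcn2 by 2.41 (SE 0.72, adjusted p = 0.0221), and Apcs was lower, at -1.14 (SE 0.15, adjusted p = 2.08e-05). The Lcn2 call was lost without CD + Veh replicate 3 or 4 or MD + PE replicate 4 (adjusted p up to 0.0724), while Saa2 and Saa3 were also called without CD + PE replicate 2 (adjusted p = 0.0356 and 0.00587), and Saa3 without MD + PE replicate 2. These comparisons share groups and are not independent of each other.

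Earlier results of these data showed a division in library order after number 45. When it entered the fit as a covariate, 2 of these 6 calls stood in MD + PE against CD + Veh (Apcs at -0.93, adjusted p = 0.0319, and Orm1 at -0.88, adjusted p = 0.0361), while Orm2 (2.16, adjusted p = 0.0534), Hp (0.56, adjusted p = 0.104), Lcn2 (3.04, adjusted p = 0.123) and Saa4 (0.79, adjusted p = 0.213) were no longer called. All PE libraries lie after this division and all CD + Veh libraries before it, so this comparison rests on MD + Veh libraries on both sides.

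The other positive acute phase genes were called more often lower than higher. Of 26 genes in that list, all tested, 1 was called higher (Orm3), 7 lower and 18 not at all in MD + Veh against CD + Veh, beside 4.74% higher and 5.63% lower among all genes, and their median log2 fold change was -0.14. The genes lower were the fibrinogen chains Fga, Fgb and Fgg, the hepcidin genes Hamp and Hamp2 (the product of Hamp is the hormone that limits iron release), and the inter-alpha-trypsin inhibitor chains Itih3 and Itih4. Fgb fell from 5071 CPM ± 419 (SD, n = 4) in CD + Veh to 3035 CPM ± 228 (SD, n = 5) in MD + Veh (log2 fold change -0.74, SE 0.09, adjusted p = 2.72e-05). Hamp fell by 1.57 (SE 0.21, adjusted p = 6.5e-05) and Hamp2 by 2.73 (SE 0.39, adjusted p = 0.000111). The list gave 1 gene higher and 7 lower in MD + PE against CD + PE, beside 1.69% higher and 2.92% lower among all genes. It gave 3 higher (Orm3, Lbp and Mbl1) and 8 lower in MD + PE against CD + Veh, beside 6.02% higher and 8.55% lower among all genes.

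Negative acute phase genes, which encode carriers such as albumin and transthyretin, were called lower in 2 of 10 cases in MD + Veh against CD + Veh (Alb at -0.48, SE 0.15, adjusted p = 0.0324, and Apoa1 at -0.42, SE 0.10, adjusted p = 0.0105). They were called lower in 6 of 10 cases in MD + PE against CD + PE, with Ttr at -0.52 (SE 0.09, adjusted p = 0.00191), and in 3 of 10 cases in MD + PE against CD + Veh. None was called higher. Among all genes 5.63%, 2.92% and 8.55% were called lower in these comparisons, in that order. The hepatocyte markers, a list that shares genes with the negative acute phase list, summed to 83479 to 98609 CPM in CD + Veh and 60358 to 74880 CPM in MD + Veh. Alb, a gene of both lists, was the largest part of these sums, with means of 54984 and 39287 CPM. Of the 10 hepatocyte markers, 3 were called lower (Alb, Apoa1 and Ass1) and 1 higher (Cyp2e1 at 0.52, SE 0.16, adjusted p = 0.0374). Among all genes 5.63% were called lower and 4.74% higher. The part of hepatocytes in the lower Apcs and Orm1 was not tested.

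Of 26 genes for cytokines, their receptors and the transcription factors upstream of the acute phase genes, 21 were tested. In MD + Veh against CD + Veh the oncostatin M receptor Osmr alone was called, higher by 0.84 (SE 0.24, adjusted p = 0.0215), beside 10.4% of all genes called. In MD + PE against CD + PE the transcription factor Cebpa alone was called, lower at -0.40 (SE 0.09, adjusted p = 0.00737), beside 4.61% of all genes called. In MD + PE against CD + Veh 1 gene was called higher and 2 lower, beside 6.02% and 8.55% of all genes. They were Osmr, higher by 0.98 (SE 0.24, adjusted p = 0.00615), Cebpa, lower at -0.69 (SE 0.09, adjusted p = 2.1e-05), and the TNF receptor Tnfrsf1a, lower at -0.61 (SE 0.11, adjusted p = 0.000411). Il6, named after its values were seen, was too low to test, at 0.19 CPM or less in every library. Among 9 genes for uptake of the plasma proteins and for heme handling, 8 tested, the scavenger receptor Cd36 (2.28, SE 0.35, adjusted p = 0.000286) and the heme oxygenase Hmox1 (0.92, SE 0.29, adjusted p = 0.0385) were called higher in MD + Veh against CD + Veh, beside 4.74% of all genes. No gene of these 4 lists was called for PE against vehicle on either diet, beside 2.92% of all genes on the control diet and 1.08% on the MASH diet. Mbl1 in CD + PE against CD + Veh (0.36, SE 0.09, adjusted p = 0.0252) passed the limit on adjusted p but not that on fold change. The same held for Cebpa in MD + PE against MD + Veh (-0.35, SE 0.09, adjusted p = 0.0446). With diet, in MD + Veh against CD + Veh, it held among the upstream genes for Cebpa (-0.34, SE 0.09, adjusted p = 0.0157) and Tnfrsf1a (-0.34, SE 0.11, adjusted p = 0.0352).

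Markers of other cell types moved in part with the diet, and a few cell markers differed with PE. The hepatocyte marker Ass1 was called lower in CD + PE against CD + Veh (-0.56, adjusted p = 0.0191), beside 1.7% of all genes. In MD + PE against MD + Veh, Ass1 (-0.95, adjusted p = 0.000611) and Apoc3 (-0.41, adjusted p = 0.0239) were called lower, beside 0.934% of all genes. The skeletal muscle markers Mb, Myh4 and Tnnt3 were also called lower in MD + PE against MD + Veh. Among 8 markers of lipid-associated and recruited macrophages, 3 were called higher and 1 lower in MD + Veh against CD + Veh, beside 4.74% higher and 5.63% lower among all genes. These markers were Gpnmb at 3.72 (SE 1.05, adjusted p = 0.0226), Itgax at 2.06 (adjusted p = 0.0355), Lyz2 at 1.27 (adjusted p = 0.045) and Cd9 at -0.87 (adjusted p = 0.0425). All 7 skeletal muscle markers were called higher there, and their sum reached 2558 CPM in MD + Veh replicate 1 and at most 32.4 CPM in CD + Veh, with a part in the acute phase values that was not tested. No marker of Kupffer cells, red blood cells, or duct and gallbladder epithelium was called in any of the 5 comparisons, and only 1 of 11 neutrophil, 2 of 9 intestinal and 3 of 7 adipocyte markers were abundant enough to be tested. Of these, the lipid droplet gene Cidea (6.67, adjusted p = 5.54e-05) of the adipocyte list and the fatty acid binding gene Fabp2 (1.08, adjusted p = 7.56e-06) of the intestinal list were called higher in MD + Veh against CD + Veh. The duct markers summed to 155 CPM in MD + PE replicate 2, the highest library of its group for Saa1 and Orm2, and to 23.1 CPM or less in all others. The intestinal markers also had their highest sum in that library, 218 CPM, against 131 CPM or less in all others. The intestinal gene Cdx2 was at 2.02 CPM there and at 0 in all others. The part of duct or intestinal cells in the Saa1 and Orm2 values was not tested.

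For the member with the largest test statistic of each family in MD + Veh against CD + Veh, the genes most like it were found by Pearson's r of log2 CPM over the 19 libraries, which share group structure and depth. Saa3 ran most closely with Bst2 (r = 0.92), H2-Ab1 (r = 0.92) and Tbxas1 (r = 0.91), and the r of residuals from group means was 0.96, 0.86 and 0.86. Without CD + PE replicate 2, a choice made after seeing the data, the r was 0.94, 0.91 and 0.90, and these residual r were 0.90, 0.67 and 0.65 over 18 libraries. Apcs ran most closely with Sqle, an enzyme of cholesterol synthesis (r = 0.94, residual r = 0.64), then Prss8 (r = 0.93, residual r = 0.67) and Scpep1 (r = 0.92, residual r = 0.55). The residual r was below the r over all libraries for each gene named here except Bst2 with all 19 libraries. Orm1 was most like Ifitm3 (r = 0.88, residual r = 0.69), Ube2s and Hopx (both r = 0.86), and Hp most like Cmpk1 (r = 0.84, residual r = 0.61), Cd81 and Bsg (both r = 0.83).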

How the data were processed

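Liver RNA of 19 mice was sequenced from poly(A) libraries, 1 per mouse. Per the submitters' processing notes the authors used fastp 0.23.4, Salmon 1.10.3 and DESeq2 with GRCm39; the GENCODE release is not given in the sources used here. The authors summed transcript estimates to genes, and the deposited values are estimated counts per gene, held as whole numbers, without normalization or filter. Salmon divides reads shared by near-identical transcripts by estimation, which affects Saa1, Saa2 and the Orm genes. Groups came from sample titles and treatment labels, and 0 columns lacked a sample. No library was a copy of another of its group, and pairs across groups were not compared.

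All genes were fitted in R 4.3.3 with edgeR 4.0.16 (TMM, filterByExpr by group, 1 coefficient per group, quasi-likelihood F test, Benjamini-Hochberg adjustment over 13597 genes), and members were read from that fit. SE is the log2 fold change divided by the square root of F. Alternatives were DESeq2 1.42.0, RLE scaling, no filter, a stricter filter (a mean of 1 CPM, and 10 counts in all libraries of at least 1 group), no minimum fold change, the replicate number as a block, a fit of only the groups compared, a covariate for library numbers up to 45 against 46 and above, summed paralogs, and each library left out. The same analysis was tested on simulated data. Over 27 pairs of libraries that share a replicate number, residuals correlated with a median of 0.0293 (range -0.245 to 0.410), above 0.1 in 6, so replicates were treated as unpaired. Nothing states that a number marks the same cage or day.

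The members, lists, motifs and tests were chosen with earlier results of these data known. All 10 members are named. From each companion list up to 4 called genes are named, lowest adjusted p first, with exceptions that were decided after the values were seen. All genes called in MD + Veh against CD + Veh are named for the positive acute phase, macrophage and hepatocyte lists. All cell type markers called for PE against vehicle are named. Lbp, Mbl1 and Cdx2 are named as well. Columns of the RefSeq promoter table were placed on GRCm39 by exact match, and bases within annotated exons were left out of the printed stretches. The motif counts and the identities of windows used all 250 bases, exons included.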

Additional observations from a re-analysis of the deposited data

Results flagged for a closer look

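Dixon's ratio was taken on linear CPM in 40 sets of values (10 genes in 4 groups). In 6 of these sets the highest library stood apart from the rest of its group by more than Dixon's 95% critical value. Chance alone marks about 1 set in 20 only where the values are normally distributed, and that was not tested. The ratios were not taken on log2 CPM, so the dependence of the 6 marks on the scale was not tested. All 6 marks fell on the same library, CD + PE replicate 2, and the 10 genes are not independent of each other. It held Saa1 at 277 CPM, Saa2 at 145 CPM, Saa3 at 21.6 CPM, Orm2 at 18.1 CPM, Lcn2 at 11.5 CPM and Hpx at 5895 CPM. Among the other 4 libraries of the group the highest values were 50.8 CPM for Saa1, 30.0 CPM for Saa2, 3.21 CPM for Saa3, 6.56 CPM for Orm2, 3.18 CPM for Lcn2 and 3629 CPM for Hpx. What sets this library apart was not tested.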

How the results depend on the processing

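Calls of the members held best for Apcs. The number of members called in CD + PE against CD + Veh was 0 and became 1 (Orm1) with the stricter filter and with DESeq2, and it ranged from 0 to 1 with each library left out. In MD + Veh against CD + Veh it was 4, became 2 (Apcs, Saa3) with paralogs summed and 6 with only the groups compared, and ranged from 1 without MD + Veh replicate 1 or 2 to 6 without CD + PE replicate 2. In MD + PE against CD + PE it was 4, became 3 (Lcn2 lost) with only the groups compared, and ranged from 2 without CD + PE replicate 1 or MD + PE replicate 5 to 7 without CD + PE replicate 2. In MD + PE against CD + Veh it was 6, became 2 (Apcs, Orm1) with the library division as a covariate, and ranged from 5 to 8 with each library left out. The covariate also ended the Saa3 call in MD + Veh against CD + Veh (1.89). The cause was not tested for the covariate and the stricter filter, while summing paralogs and leaving out libraries change the genes or samples tested. Standard errors of 0.55 or more for Saa1, Saa2, Saa3 and Lcn2 limit what could be detected.

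Directions turned for members that were not called. In CD + PE against CD + Veh the library division gave -0.0228 for Saa4, 0.15 for Orm2, -0.0218 for Hpx and 0.105 for Apcs, and the replicate block gave -0.18 for Saa2 and -0.13 for Lcn2. In MD + PE against MD + Veh the division gave -0.0791 for Hpx and the absence of a filter -0.00209 for Apcs, and in MD + PE against CD + Veh the division gave -0.0665 for Hpx. For the interaction the block gave 0.12 for Saa2, and Hp was 0.0113 with RLE, 0.00248 without a filter, 0.0182 with the block and 0.0122 with DESeq2.

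With each library left out, the log2 fold change in CD + PE against CD + Veh ranged from -1.04 to 0.59 for Saa2, -0.64 to 1.00 for Saa3, -0.0685 to 0.225 for Hpx and -1.05 to 0.59 for Lcn2. It ranged in MD + PE against MD + Veh from -0.31 to 0.12 for Saa2, -0.0309 to 0.0679 for Hpx, -0.00324 to 0.757 for Lcn2 and -0.0562 to 0.0974 for Apcs, and in MD + PE against CD + PE from -0.13 to 0.15 for Hpx. For the interaction it ranged from -0.70 to 0.92 for Saa2, -1.33 to 0.31 for Saa3, -0.0754 to 0.0685 for Hp, -0.213 to 0.0784 for Hpx and -0.0876 to 1.54 for Lcn2.

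With the replicate number as a block, 0 members were called in CD + PE against CD + Veh, 3 in MD + Veh against CD + Veh (Saa3 was lost), 0 in MD + PE against MD + Veh, 4 in MD + PE against CD + PE, 6 in MD + PE against CD + Veh and 0 for the interaction.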
